A study of Mus musculus with 24 samples.

Results

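The genes described here are 43 genes of mitosis and the spindle, taken by their symbols from the 25844 genes with counts in the series. They were chosen with earlier results of these data known, as were the lists named further on. Counts set beside the share of all tested genes therefore describe the set and are no independent test of it. All 43 were found under 1 identifier each, passed the filter on low counts and were tested in each comparison. The libraries were poly-A RNA-seq of forelimb buds from CD1 mouse embryos of gestation day 13, an organ of limb mesenchyme and early cartilage that was taken out and kept in culture. The buds were grown for 3 h or 24 h in dimethyl sulfoxide (DMSO, the vehicle and control), in 1 µM or in 10 µM of tert-butylphenyl diphenyl phosphate (BPDP), a plasticizer and flame retardant of the organophosphate ester class. This gave 6 groups of 4 libraries, replicates 1 to 4, with the strain, embryonic age and culture common to all. The labels do not tie the replicates to different litters or cultures, and the p-values describe only how these libraries vary. The embryos' sex, the number of buds behind a library and the dose reaching the cells were not given in the sources used here.

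Cells enter mitosis when the kinase Cdk1, bound to cyclins A and B, is switched on by Cdc25 phosphatases, and they leave it when the anaphase-promoting complex marks cyclin B and securin for destruction. In between, Polo and Aurora kinases build the spindle, kinetochores tie chromosomes to its microtubules, the spindle checkpoint delays anaphase until all are attached, and the midzone and contractile ring divide the cell. Transcripts of this set peak together in G2 and mitosis. In a tissue their level depends on how many cells are dividing and on how much of these RNAs each cell holds. In the limb bud, proliferating mesenchyme gives way to cartilage as cells leave the cycle.

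Library totals ran from 14165947 to 20823058 counts. Levels are given as CPM, the gene's share of a library's counts on the usual per-megacount scale, scaled over all 24 libraries by trimmed means (TMM), and a gene was called changed at a Benjamini-Hochberg adjusted p under 0.05 in edgeR's quasi-likelihood test. The forelimb gene Tbx5 ran from 189.5 to 305 CPM over the libraries and Prrx1, a limb mesenchyme gene, from 346 to 520 CPM, while the hindlimb genes Tbx4 (14.9 to 23.4 CPM) and Pitx1 (1.93 to 12.4 CPM) were low. The lowest raw count of any of the 43 genes in any library was 99, in Cdc25c.

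The 43 genes fell together with time in culture, and fell further with BPDP at 24 h. Their summed level was 2918, 3058, 3275 and 3373 CPM in the 3 h controls and 1808, 1722, 1757 and 1884 CPM in the 24 h controls. With 1 µM at 24 h it was 1473, 1245, 1468 and 1358 CPM, and with 10 µM at 24 h 969.8, 898.3, 992.5 and 1025 CPM. The 3 groups at 24 h did not overlap: the lowest control lay above the highest 1 µM library, and the lowest 1 µM library above the highest 10 µM library. Against a mean of 3156 ± 206 CPM in the 3 h controls (SD, n = 4), the 24 h controls held 56.8%, the 1 µM libraries 43.9% and the 10 µM libraries 30.8%. At 3 h the sum was 3167 ± 185 CPM with 1 µM and 3198 ± 256 CPM with 10 µM (SD, n = 4 each), within the spread of the controls. Replicates 3 and 4 lay above replicates 1 and 2 in each of the 3 groups at 3 h. In bulk tissue, fewer dividing cells and less of these RNAs per cell cannot be told apart.

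**Figure D1:**
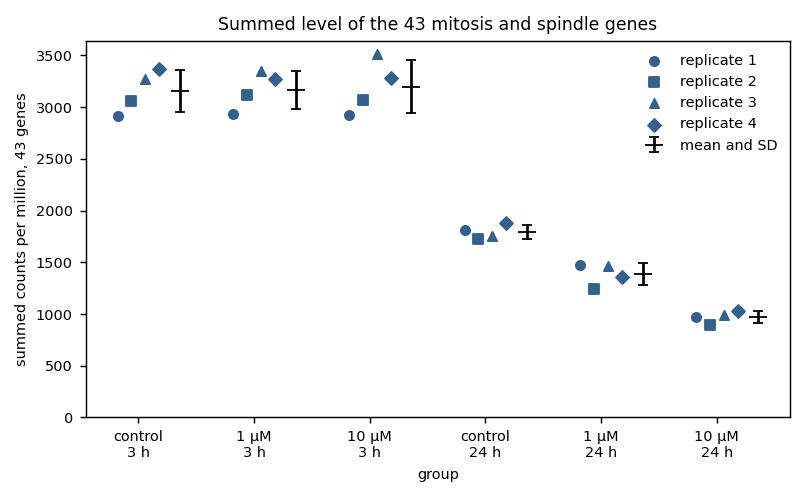
Summed CPM of the 43 genes in each of the 24 libraries, by group, with the replicate as the symbol and the group mean and SD as a black bar. The 3 h groups lie together between 2918 and 3512 CPM, and the 24 h groups step down without overlap from the controls (1722 to 1884 CPM) to 10 µM (898.3 to 1025 CPM).

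At 10 µM and 24 h all 43 genes were called lower, beside 3.44% of all tested genes in that comparison. The median log2 fold change over the 43 was -0.86, from -1.18 for Cks2 to -0.64 for Kif4, with standard errors of 0.07 to 0.18 and adjusted p-values from 6.87e-05 (Mki67) to 0.0443 (Ttk). For each of the 43 genes all 4 libraries with 10 µM lay below all 4 controls, a separation found for 7.34% of all tested genes. At 1 µM and 24 h no gene of the set passed, beside 0.077% called in either direction over all genes. All 43 were nevertheless negative there, with a median of -0.37, beside -0.01 over all tested genes, and a range from -0.60 (Kif23) to -0.16 (Ttk). An unadjusted p under 0.05 was found for 35 of them, beside 5.89% of all tested genes. Neither dose gave a call among the 43 at 3 h, where 0.0% of all tested genes were called with 1 µM and 0.00644% with 10 µM. The medians there were -0.02 and 0.00. In the controls, from 3 h to 24 h, all 43 were called lower, beside 4.1% of all tested genes, with a median of -0.80 and a range from -1.15 (Spc24) to -0.62 (Cdk1). Within replicates 3 and 4 alone, 36 of the 43 genes were called at 10 µM and 24 h and 43 over time in the controls. There 42 and 43 genes had an unadjusted p under 0.05, beside 22.1% and 21.1% of all tested genes. Within replicates 1 and 2 the numbers called were 0 and 1, with 43 and 42 genes at an unadjusted p under 0.05 (10.4% and 13.0% of all tested genes), and all 43 genes were negative in each of these 4 cases. The share of all tested genes called within replicates 1 and 2 or within replicates 3 and 4 is not given here. The comparison of 10 µM with control at 24 h and that of the controls over time share the 24 h control libraries.

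**Figure D2:**
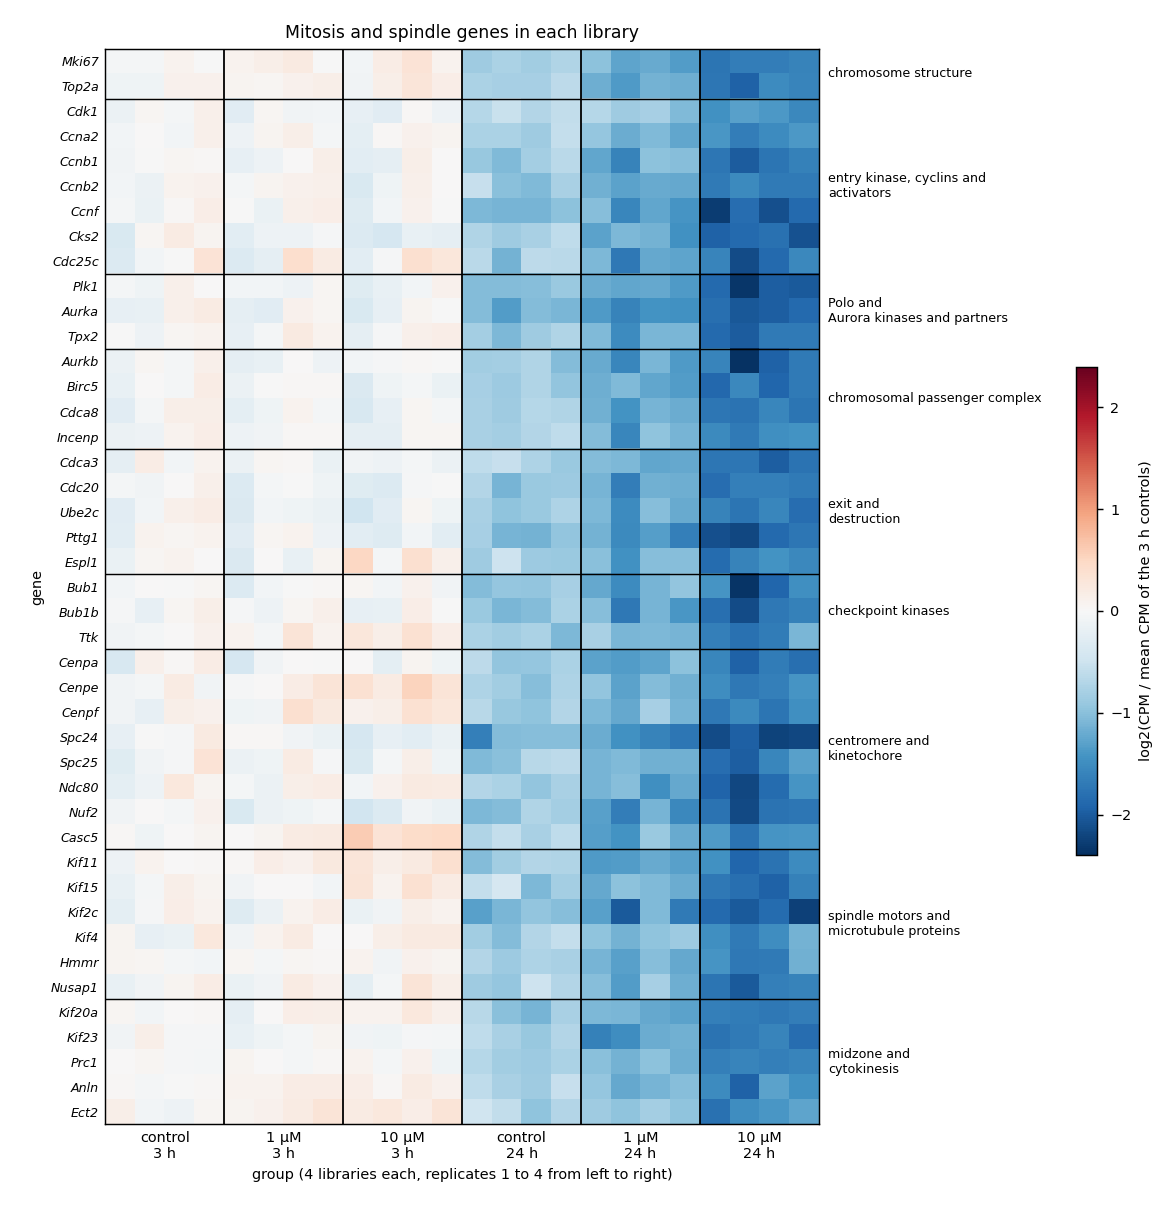
Each row is a gene, ordered by role, and each column a library. Colour is the log2 ratio of its CPM to the mean of the 3 h controls (red higher, blue lower). The 3 h libraries stay near 0, while the 24 h libraries are blue in all 43 genes and darkest with 10 µM.

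Promoter windows are shown because this class of genes is known for a pair of promoter elements. The first is the CCAAT box, bound by the factor NF-Y. The second is the cell cycle homology region (CHR), bound by the MuvB complex through its subunit Lin54. RefSeq windows of the build GRCm38.p6, from 250 bases before to 50 bases after the annotated start, were matched for 36 of the 43 genes, with 38 windows. Both strands were searched for CCAAT and for TTTGAA or TTTAAA as the CHR letters, and CHR and CCAAT matches may overlap. CHR letters were in 33 of the 38 windows (86.8%), against 27.6% of all 32851 windows. CCAAT was in 29 windows (76.3%), against 37.4% of all, and both were in 27 windows (71.1%), against 10.7%. CHR letters beginning at most 50 bases before the start, or after it, were in 78.9% of the genes' windows and 8.28% of all windows. Among the DNA replication genes named further on, 8 of 31 windows (25.8%) held CHR letters and 19 (61.3%) held CCAAT. A match is a description of letters and not a bound site. Since the class is known for these elements, the shares describe the choice of genes. A link of the letters to the fall was not tested.

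The stretch from 150 bases before to 50 bases after the start is printed for 6 genes, 1 in each of the first 6 roles, namely the gene with the largest fall at 10 µM and 24 h among those whose window held both motifs. Capitals mark CCAAT and CHR letters on either strand (from the other strand CCAAT reads ATTGG), and each runs 5′ to 3′ along its gene. They lie at chr11:99024140-99024339 on the minus strand for Top2a, chr17:24251360-24251559 on the minus strand for Ccnf, chr7:122159285-122159484 on the plus strand for Plk1, chr4:124936868-124937067 on the minus strand for Cdca8, chr6:124830026-124830225 on the plus strand for Cdca3 and chr2:118598061-118598260 on the plus strand for Bub1b.
Top2a: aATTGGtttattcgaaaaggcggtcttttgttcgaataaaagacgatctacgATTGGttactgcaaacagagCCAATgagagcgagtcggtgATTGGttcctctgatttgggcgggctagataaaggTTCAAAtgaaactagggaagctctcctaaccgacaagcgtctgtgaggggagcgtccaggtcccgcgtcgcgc
Ccnf: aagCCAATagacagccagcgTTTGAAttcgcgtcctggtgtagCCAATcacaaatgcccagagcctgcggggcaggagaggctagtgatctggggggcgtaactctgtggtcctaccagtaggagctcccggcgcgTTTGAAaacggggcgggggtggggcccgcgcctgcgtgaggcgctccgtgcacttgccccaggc
Plk1: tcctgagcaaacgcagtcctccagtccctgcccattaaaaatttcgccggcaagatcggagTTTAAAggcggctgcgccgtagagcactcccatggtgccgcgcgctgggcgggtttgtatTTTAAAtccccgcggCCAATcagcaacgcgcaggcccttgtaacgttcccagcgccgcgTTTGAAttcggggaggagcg
Cdca8: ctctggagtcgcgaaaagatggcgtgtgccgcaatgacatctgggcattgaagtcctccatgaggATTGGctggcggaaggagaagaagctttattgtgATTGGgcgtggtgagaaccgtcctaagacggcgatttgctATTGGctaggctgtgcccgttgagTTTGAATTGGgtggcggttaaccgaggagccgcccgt
Cdca3: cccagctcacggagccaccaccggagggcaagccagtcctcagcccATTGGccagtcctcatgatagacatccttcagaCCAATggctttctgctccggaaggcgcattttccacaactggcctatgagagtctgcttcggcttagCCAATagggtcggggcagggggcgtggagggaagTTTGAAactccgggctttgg
Bub1b: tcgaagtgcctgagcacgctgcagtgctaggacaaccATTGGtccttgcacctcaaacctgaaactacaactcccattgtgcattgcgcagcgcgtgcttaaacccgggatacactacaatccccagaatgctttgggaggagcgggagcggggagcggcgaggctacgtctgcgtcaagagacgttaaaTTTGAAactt
In Cdca8 the CHR letters and the last CCAAT box, read on the other strand, overlap. Plk1 held CHR letters at 3 places, Ccnf at 2 and the other printed stretches at 1. Cks2 and Bub1 held CCAAT without CHR letters, and Pttg1, Nuf2 and Nusap1 held neither in their windows. These 5 genes were also lower at 10 µM and 24 h, with log2 fold changes of -1.18, -0.81, -0.96, -0.94 and -0.996.

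**Figure D3:**
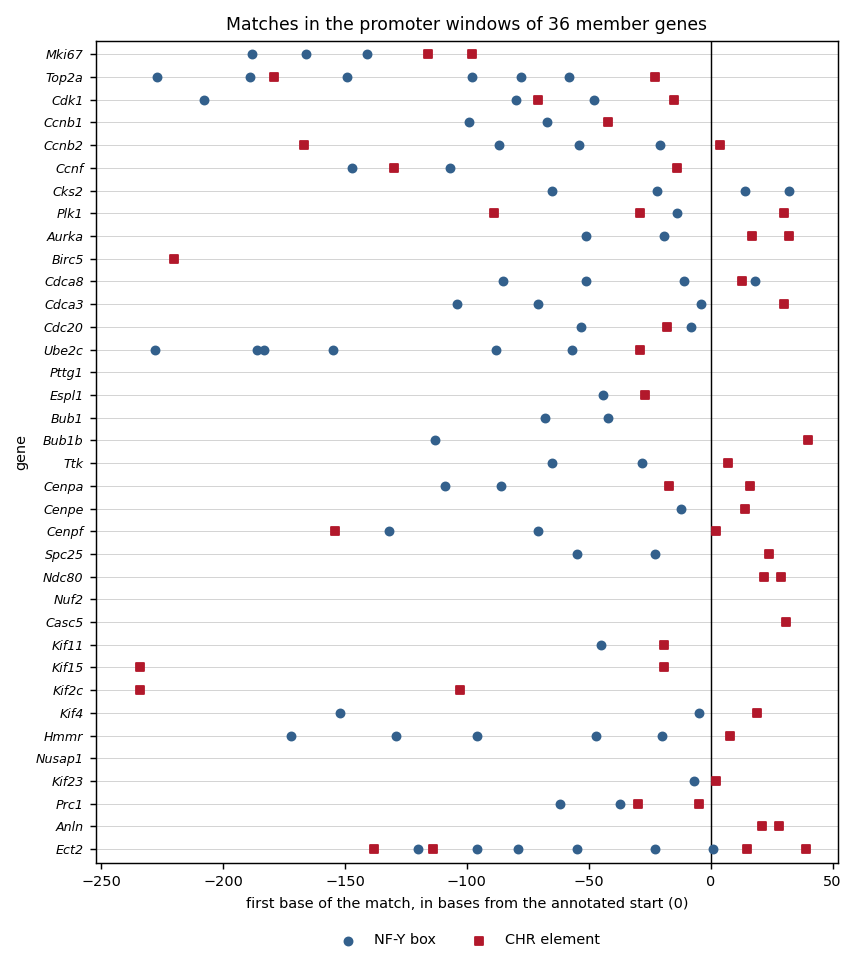
Positions of the letter matches in the promoter windows of 36 genes, in bases from the annotated start (0); blue circles are NF-Y (CCAAT) boxes and red squares CHR elements. Of the 38 windows 33 hold CHR letters, and 78.9% hold them within 50 bases before the start or after it.

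Mki67 encodes Ki-67, which coats mitotic chromosomes and marks cycling cells, and Top2a the topoisomerase that untangles sister chromatids. Mki67 (chr7:135689788-135716379, minus strand, mm10) stood at 142, 152, 144 and 156 CPM in the 24 h controls, 131, 107, 112 and 101 CPM with 1 µM and 76.02, 81.7, 81.2 and 84.2 CPM with 10 µM. The 3 groups did not overlap, and the log2 fold change at 10 µM was -0.88 (SE 0.07, adjusted p = 6.87e-05), the smallest adjusted p of the set. Top2a (chr11:98992943-99024189, minus strand) gave 184, 180.3, 179 and 202 CPM in the 24 h controls, 139, 121, 142 and 139 CPM with 1 µM and 94.2, 81.6, 110.2 and 104 CPM with 10 µM, again without overlap. Its fall at 10 µM was -0.93 (SE 0.10, adjusted p = 3.00e-04). At 3 h with 10 µM the 2 genes were at 0.15 and 0.14 on the log2 scale, and neither passed.

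The genes of mitotic entry are Cdk1, its cyclins Ccna2, Ccnb1 and Ccnb2, the cyclin-like ubiquitin ligase subunit Ccnf, the Cdk-binding protein Cks2 and the activating phosphatase Cdc25c. Their summed level was 279 ± 17.3 CPM in the 24 h controls, 220.2 ± 17.6 CPM with 1 µM and 152 ± 2.46 CPM with 10 µM (SD, n = 4). All 7 fell at 10 µM, with a median log2 fold change of -0.91. Cks2 (chr13:51645232-51650660, plus strand), the shortest gene of the set at 692 bases, had 33.97, 31.04, 32.7 and 36.7 CPM in the 24 h controls, 23.02, 26.6, 25.4 and 20.3 CPM with 1 µM and 14.6, 15.3, 16.2 and 13.1 CPM with 10 µM. The groups were apart at each step, and its log2 fold change of -1.18 (SE 0.12, adjusted p = 2.23e-04) at 10 µM was the lowest of the 43. Cdk1 (chr10:69336635-69352938, minus strand) measured 54.8, 60.6, 53.9 and 58.3 CPM in the 24 h controls, 54.3, 48.4, 50.3 and 42.4 CPM with 1 µM and 32.2, 35.7, 33.7 and 30.2 CPM with 10 µM. Here the controls and 1 µM overlapped, since replicate 1 with 1 µM lay above control replicate 3, while all the 10 µM libraries lay below both. Cdk1 changed by -0.78 (SE 0.09, adjusted p = 4.79e-04) at 10 µM, and by -0.62 (SE 0.09, adjusted p = 0.00106) in the controls over time, the smallest fall of the set with time. The cyclins fell by 0.74 (Ccna2), 0.91 (Ccnb1), 0.81 (Ccnb2) and 0.93 (Ccnf) on the log2 scale, and Cdc25c by 1.00.

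Plk1, the Polo kinase of mitotic entry and exit, Aurka, the Aurora kinase of spindle poles, and Tpx2, which activates Aurka on spindle microtubules, summed to 134 ± 10.4 CPM in the 24 h controls and 69.97 ± 6.13 CPM with 10 µM (SD, n = 4). Plk1 (chr7:122159437-122169875, plus strand) was at 39.5, 39.2, 39.9 and 43.3 CPM in the 24 h controls, 35.4, 34.2, 34.4 and 31.7 CPM with 1 µM and 22.2, 16.1, 20.5 and 20.1 CPM with 10 µM, with 3 separate ranges. Between 1 µM and 10 µM it fell by 0.78 (SE 0.09, adjusted p = 9.73e-06), the lowest value of the set in that contrast. Aurka was at -1.12 (SE 0.12, adjusted p = 1.57e-04) over time in the controls and at -0.79 (SE 0.12, adjusted p = 0.00217) with 10 µM at 24 h. Both values rest on the 24 h controls, and their difference was not tested. Tpx2 gave -0.94, adjusted p = 4.04e-04 at 10 µM.

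The chromosomal passenger complex corrects wrong attachments of chromosomes and later directs cytokinesis. It is made of the kinase Aurkb, the scaffold Incenp, survivin (Birc5) and borealin (Cdca8). All 4 genes fell at 10 µM, and their sum went from 189 ± 6.98 CPM in the 24 h controls through 141 ± 12.6 CPM with 1 µM to 102 ± 4.53 CPM with 10 µM (SD, n = 4). Aurkb (chr11:69045647-69051664, plus strand) had 30.7, 31.1, 33.4 and 26.5 CPM in the 24 h controls and 18.4, 10.7, 14.3 and 16.9 CPM with 10 µM, and Cdca8 (chr4:124918465-124939311, minus strand) 43.4, 41.2, 45.9 and 44.9 CPM and 22.2, 21.7, 25.1 and 21.97 CPM. In both genes the highest 10 µM library lay under the lowest control. The log2 fold changes were -1.01 (SE 0.16, adjusted p = 0.00268) for Aurkb, -0.94 for Cdca8, -0.91 for Birc5 and -0.79 for Incenp.

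Exit from mitosis is represented by Cdc20, the activator of the anaphase-promoting complex, Ube2c, its ubiquitin-conjugating enzyme, securin (Pttg1) and separase (Espl1). Securin holds separase inactive, and separase cleaves cohesin. Grouped with them for its part in protein destruction, and not for exit, is Cdca3, a trigger of mitotic entry through the destruction of Wee1. Cdca3 (chr6:124829547-124833701, plus strand) had the second lowest log2 fold change of the set at 10 µM, -1.10 (SE 0.12, adjusted p = 3.23e-04). Its levels were 38.1, 39.6, 34.9 and 31.4 CPM in the 24 h controls, 28.3, 27.5, 24.7 and 24.9 CPM with 1 µM and 17.4, 17.6, 14.8 and 16.9 CPM with 10 µM, again 3 ranges without overlap. Cdc20 (chr4:118432901-118437352, minus strand) was at 59.7, 45.1, 52.96 and 53.7 CPM in the 24 h controls, 45.2, 30.9, 44.05 and 43.5 CPM with 1 µM and 27.6, 31.4, 31.2 and 30.1 CPM with 10 µM. With 1 µM its replicate 2 lay within the range of the 10 µM libraries and far from the other 3. Securin fell by 0.96 and separase by 0.83 on the log2 scale at 10 µM (adjusted p = 0.00305 and 0.0034), and Ube2c by 0.83.

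The kinases of the spindle checkpoint are Bub1, Bub1b, which encodes the checkpoint protein BubR1, and Ttk, which encodes Mps1. Ttk (chr9:83834689-83872389, plus strand) was the least firm call of the set: it stood at 14.5, 13.7, 14.5 and 11.5 CPM in the 24 h controls and 7.86, 7.05, 7.59 and 11.4 CPM with 10 µM. The groups touched closely, since 10 µM replicate 4 came just under the lowest control, and the log2 fold change was -0.67 (SE 0.18, adjusted p = 0.0443). When the 8 libraries were left out one at a time, Ttk no longer passed in 7 of the 8 fits (highest adjusted p = 0.129). Bub1 gave -0.81 (SE 0.18, adjusted p = 0.0201) and lost its call without control replicate 4 or 10 µM replicate 3 (adjusted p up to 0.0657), and Bub1b gave -0.86 (SE 0.13, adjusted p = 0.00166).

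Of the 8 centromere and kinetochore genes, Cenpa encodes the histone H3 variant of centromeres, Cenpe a kinetochore motor, Cenpf a large kinetochore protein, Casc5 (Knl1) the scaffold on which checkpoint proteins assemble, and Ndc80, Nuf2, Spc24 and Spc25 the 4 subunits of the Ndc80 complex that grips microtubules. Their sum was 229.6 ± 11.5 CPM in the 24 h controls, 181 ± 9.27 CPM with 1 µM and 126 ± 9.38 CPM with 10 µM (SD, n = 4). The 4 Ndc80 complex genes fell at 10 µM by 1.01 (Ndc80), 0.97 (Spc24), 0.94 (Nuf2) and 0.82 (Spc25) on the log2 scale. Ndc80 (chr17:71496100-71526857, minus strand) was at 19.4, 18.6, 16.3 and 18.3 CPM in the 24 h controls, 14.5, 15.5, 11.4 and 13.4 CPM with 1 µM and 8.36, 6.93, 8.74 and 11.8 CPM with 10 µM. The 10 µM and 1 µM libraries overlapped in Ndc80, through 10 µM replicate 4, while the controls lay above both. Spc24 fell furthest of the set over time in the controls, by 1.15 (adjusted p = 4.21e-04), although control replicate 1 at 24 h, at 15.4 CPM, lay far under the other 3 at 23.45 to 23.84 CPM. Cenpa gave -0.93 (SE 0.12, adjusted p = 6.80e-04) at 10 µM and 24 h.

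Spindle motors and microtubule proteins were the plus-end motors Kif11 and Kif15, which push spindle poles apart, the microtubule depolymerase Kif2c, the chromokinesin Kif4, and the spindle proteins Hmmr and Nusap1. All 6 fell at 10 µM, with a median of -0.86. Kif15 (chr9:122951081-123018725, plus strand) had 26.3, 29.7, 18.5 and 22.2 CPM in the 24 h controls, 16.7, 19.7, 18.9 and 17.2 CPM with 1 µM and 11.9, 11.2, 10.2 and 12.7 CPM with 10 µM. The 10 µM libraries lay below all others, while 2 of the 1 µM libraries overlapped the lowest control. Its change at 10 µM was -1.07 (SE 0.16, adjusted p = 0.00171). Kif4 (chrX:100625737-100727214, plus strand) showed the smallest fall, -0.64 (SE 0.15, adjusted p = 0.0255), and it no longer passed in 5 of the 8 fits that left out 1 library (highest adjusted p = 0.085). Hmmr (-0.69 (SE 0.14, adjusted p = 0.013)) lost its call without 10 µM replicate 2 (adjusted p = 0.0501). Nusap1 fell by 0.996, Kif2c by 0.89 and Kif11 by 0.82 on the log2 scale.

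Genes of the midzone and of cytokinesis were the midzone motors Kif20a and Kif23, the microtubule bundler Prc1, the contractile ring protein anillin (Anln) and the cytokinesis gene Ect2. Their sum was 259 ± 4.33 CPM in the 3 h controls, 153 ± 13.9 CPM in the 24 h controls, 119 ± 4.23 CPM with 1 µM and 84.8 ± 4.27 CPM with 10 µM at 24 h (SD, n = 4). Prc1 (chr7:80294450-80316259, plus strand) had 43.9, 39.2, 38.3 and 41.4 CPM in the 24 h controls, 34.8, 32.2, 35.5 and 31.1 CPM with 1 µM and 22.5, 23.4, 22.6 and 23.3 CPM with 10 µM, 3 narrow ranges apart. Its log2 fold change was -0.82 (SE 0.10, adjusted p = 4.79e-04) at 10 µM against control and -0.54 (SE 0.07, adjusted p = 3.98e-05) against 1 µM. Kif23 (chr9:61917280-61946799, minus strand) had 35.99, 31.9, 29.01 and 33.7 CPM in the 24 h controls and 17.8, 19.6, 23.9 and 24.6 CPM with 1 µM. All 4 of its 1 µM libraries were below the controls, and at -0.60 (SE 0.13, adjusted p = 0.245) it had the lowest log2 fold change of the set at 1 µM without passing. Anln, Ect2 and Kif20a fell at 10 µM by 0.84, 0.79 and 0.79 on the log2 scale.

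**Figure D4:**
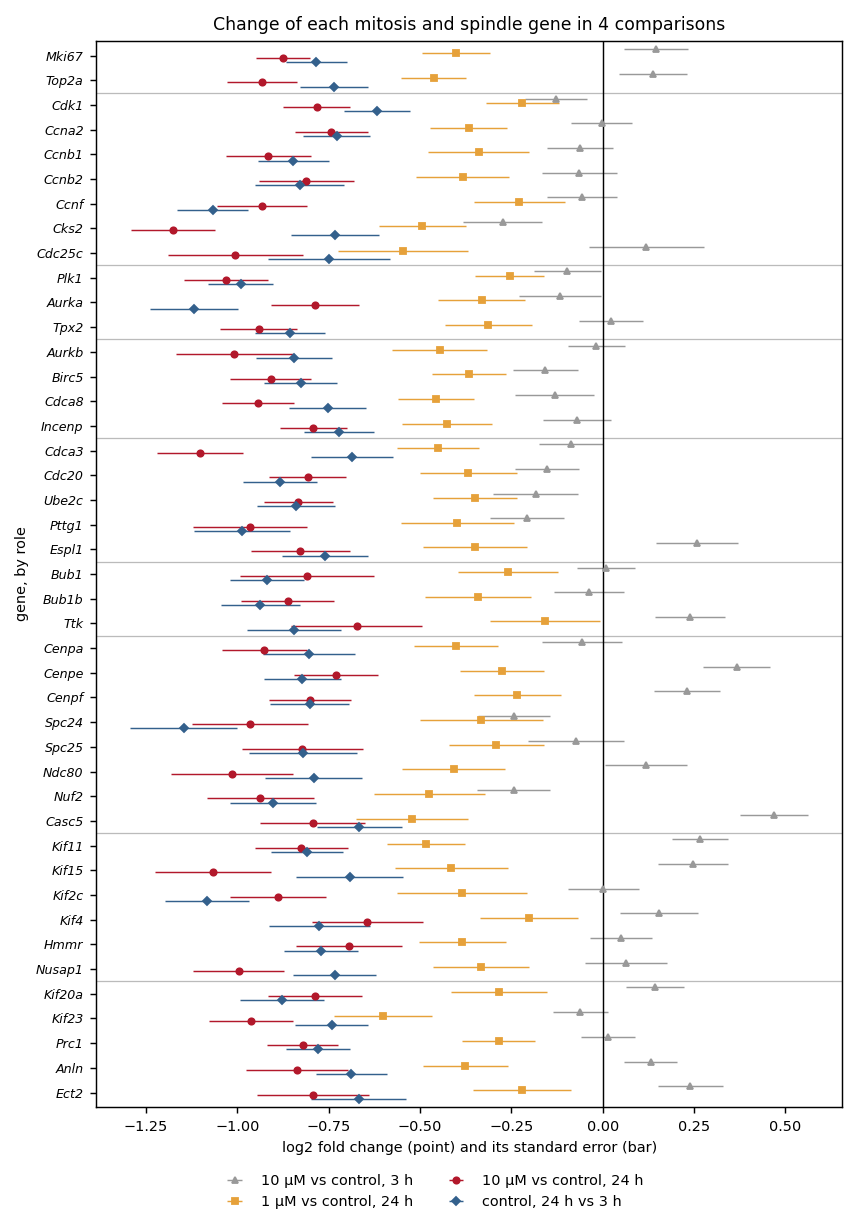
Log2 fold change of each gene (point) with its standard error (bar) in 4 comparisons, ordered by role. The 10 µM comparison at 24 h (red) and the controls over time (blue) lie between -1.18 and -0.62 in all 43 genes, the 1 µM comparison at 24 h (orange) lies between -0.60 and -0.16, and 10 µM at 3 h (grey) lies on both sides of 0.

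Order by dose was the same in every gene at 24 h. The mean CPM went from control through 1 µM to 10 µM in that descending order in 43 of 43 genes, against 16 of 43 at 3 h, where 14 went the other way. The share of all tested genes in that order is not given here. The 43 genes moved together in the same libraries and are not separate observations of a dose order. The log2 fold change at 1 µM was 41.3% of that at 10 µM in the median gene, from 23.4% to 65.7%, and both share the 24 h controls. In 23 genes all 4 libraries with 1 µM lay below all 4 controls, beside 2.04% of all tested genes. The lowest adjusted p at 1 µM was 0.135, for Top2a, at a log2 fold change of -0.46. DESeq2 called 4 genes there, and 9 were called in a fit of all 24 libraries. The authors' deposited table called 5, namely Cdca8, Kif11, Kif23, Mki67 and Top2a. The share of all genes called by each of these other tests is not given here, so their counts cannot be set against it. The number of calls at 1 µM thus depended on the test, while the sign did not change in any of the 43 genes under the alternatives run.

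The 2 doses were compared directly in 1 fit of all 24 libraries. At 24 h, 39 of the 43 genes were called lower with 10 µM than with 1 µM, beside 2.13% of all tested genes. All 43 were below 0, with a median of -0.52 and a range from -0.78 (Plk1) to -0.28 (Casc5). Those that did not pass were Casc5 (-0.28, adjusted p = 0.224), Cdc25c (-0.46, adjusted p = 0.199), Hmmr (-0.32, adjusted p = 0.0943) and Kif2c (-0.51, adjusted p = 0.0622). In 30 genes all 4 libraries with 10 µM lay below all 4 with 1 µM, beside 5.76% of all tested genes. The count of 39 was 23 without 1 µM replicate 1, 25 without 1 µM replicate 3 and 25 without 10 µM replicate 2. At 3 h no gene of the set passed between the doses in edgeR or in DESeq2, beside 0.0% of all tested genes in edgeR, and 4 had an unadjusted p under 0.05, beside 8.3% of all tested genes.

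The set was lower at 24 h than at 3 h in every treatment. Hours in culture and the age of the tissue went together and cannot be told apart here. From 3 h to 24 h all 43 genes were called lower with 1 µM, beside 9.72% of all tested genes, with a median log2 fold change of -1.17. With 10 µM all 43 were called lower too, beside 14.1%, with a median of -1.75. In each of the 43 genes all 12 libraries at 3 h lay above all 12 at 24 h, beside 2.58% of all tested genes. The effect of 10 µM itself differed between the times: the log2 fold change at 24 h minus that at 3 h was below 0 and called in 43 of 43 genes, beside 1.61% of all tested genes called lower, with a median of -0.89. It ran from -1.31 (Kif15) to -0.65 (Ube2c). For Kif15 the 2 parts were 0.25 at 3 h and -1.07 at 24 h, and for Ube2c -0.18 and -0.83. Without 1 library the count of 43 ranged from 38 to 43, and Spc25 (10 of 16 cases) and Nuf2 (7 of 16) lost their calls most often. For 1 µM the same difference gave no call, beside 0.0359% of all tested genes in either direction, although 23 genes had an unadjusted p under 0.05, beside 3.44% of all tested genes, and the median was -0.34. DESeq2 gave 3 calls there and the fit paired by replicate number 1, and their shares over all genes are not given here.

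At 3 h the direction of the small differences with 10 µM followed gene length. All 12 genes longer than 4000 bases were positive, with a median of 0.24, and 22 of the 31 shorter genes were negative, with a median of -0.06. Across the 43 genes Spearman's rank correlation between length and log2 fold change was 0.763, a description over genes that share the same 8 libraries. The same slope ran through all tested genes, whose median went from -0.16 in genes of up to 1000 bases to 0.20 in genes over 6000 bases. Casc5 (chr2:119047119-119105501, plus strand, 7800 bases) was at 27.2, 24.8, 26.9 and 28.1 CPM in the 3 h controls and 40.9, 33.4, 36.1 and 37.1 CPM with 10 µM at 3 h. Cenpe (chr3:135212563-135273540, plus strand, 7813 bases) was at 60.1, 61.6, 72.9 and 59.97 CPM and 82.2, 73.2, 92.3 and 79.0 CPM. In both genes all 4 libraries with 10 µM lay above all 4 controls, as in 6 of the 43 genes and 4.98% of all tested genes. Neither passed (Casc5 0.47, adjusted p = 0.0903, Cenpe 0.37, adjusted p = 0.104). Both were called higher in the fit that paired libraries by replicate number (adjusted p = 0.027 and 0.0299), and they are also the 2 genes of the set that the authors' deposited table calls. Shares of all genes called are not given here for that table, the paired and DESeq2 fits at 3 h or the fits without the length trend. Their counts among the 43 therefore cannot be set against such a share. With the length trend removed none passed, paired or not, and Casc5 stood at 0.27 (adjusted p = 0.349). At 3 h with 10 µM, 11 genes had an unadjusted p under 0.05 (8 higher and 3 lower), against 15.5% of all tested genes, and DESeq2 called 2. With 1 µM at 3 h none of the 43 had one, against 5.19% of all tested genes, and DESeq2 called 0. At 24 h length went with the fall less (rank correlation 0.344), and all 43 genes stayed negative with the trend removed, 42 of them called. The exception was Ttk, which stood at -0.65 (adjusted p = 0.0501) and was called when libraries were also paired by replicate number (-0.67, adjusted p = 0.0358).

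**Figure D5:**
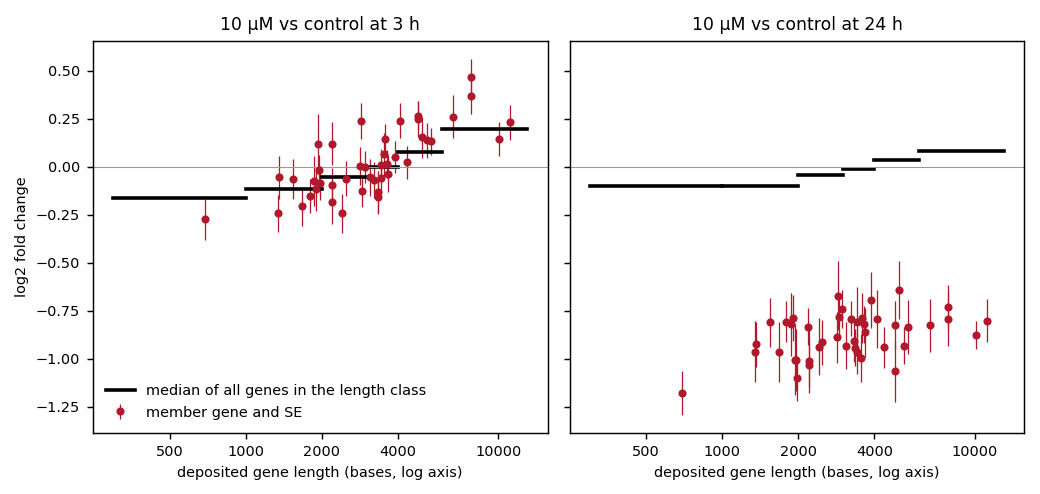
Log2 fold change of each of the 43 genes (red, with its standard error) against the deposited gene length on a log axis, for 10 µM at 3 h and at 24 h. Black lines are the medians of all tested genes in 6 length classes. At 3 h the genes lie along the rising black lines, and at 24 h they lie below them at every length.

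Levels can be set against each other only per length. Per kilobase, the highest levels in the 3 h controls were those of Cks2 (80.95 ± 12.7 CPM per kb), Cenpa (61.1 ± 9.92), Top2a (59.7 ± 4.79), Ube2c (58.4 ± 7.95) and Cdc20 (54.6 ± 3.65; SD, n = 4). Among these 5, Cks2 stood apart from its neighbour by more than the SD of both, and the other 4 did not. The lowest were Casc5 (3.43 ± 0.180 CPM per kb), Espl1 (6.75 ± 0.483), Cenpf (7.03 ± 0.767) and Kif4 (7.52 ± 1.11), of which Casc5 lay below the rest and the other 3 were within their spread. With 10 µM at 24 h Cks2 (21.4 ± 1.88 CPM per kb) and Top2a (18.7 ± 2.38) were highest, with Cenpa (18.3 ± 2.02), Ube2c (18.2 ± 1.56) and Cdc20 (16.8 ± 0.975) within the SD of Top2a, and Casc5 (1.24 ± 0.157) was again the lowest.

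Other genes of cell division were taken as lists. In the counts of these lists, a lower or higher gene is one called at an adjusted p under 0.05. Over all tested genes 3.44% were called lower at 10 µM and 24 h. Condensin, the complex that compacts mitotic chromosomes, had 5 of 8 genes lower there, among them Ncapd2 (-0.74) and Ncaph (-0.64). Of 30 other centromere and kinetochore genes 14 were lower, with Cenph at -0.97, adjusted p = 0.0029 and Hjurp, the chaperone of Cenpa, at -0.59, adjusted p = 0.0031. Of 32 other spindle, motor and cytokinesis genes 14 were lower, among them Racgap1 (-0.72), partner of Kif23, and Tacc3 (-0.74). No gene of these 3 lists was called higher, and their medians were -0.57, -0.62 and -0.50, beside a median of -0.02 over all tested genes. Of the 5 other checkpoint genes 1 was called, Mad2l1 (-0.63, adjusted p = 0.0151).

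Further lists hold genes that also act outside mitosis, and no test compared the lists with each other. The anaphase-promoting complex list had 1 of 17 genes called lower at 10 µM and 24 h, beside 3.44% of all tested genes, and a median of -0.04. The called gene was Fbxo5, an inhibitor of that complex (-0.78, adjusted p = 0.00227). Cohesin, which holds sister chromatids from S phase on, had 3 of 13 lower, namely Cdca5 (-1.10), Esco2 (-1.30) and Sgol1 (-0.72), with a median of -0.01. Of 13 tubulins 4 were lower, among them Tubb4b (-0.90, adjusted p = 5.89e-04). The DNA replication list had 26 of 31 tested genes lower, with a median of -0.70, among them Mcm7 (-0.77, adjusted p = 2.83e-04) and Rrm2 (-1.10, adjusted p = 5.80e-04). Of 23 other genes of mitotic entry and cyclin-dependent kinases 7 were called lower and none was called higher. Cyclin D1 (Ccnd1), which acts in G1, was at -1.41 (SE 0.12, adjusted p = 6.20e-05) with 10 µM. It was the 1 gene of these lists called at 1 µM (-0.83 (SE 0.13, adjusted p = 0.0264)), beside 0.077% of all tested genes in either direction.

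With time in the controls the lists differed in how many of their genes were called, again without a test between lists. Over all tested genes 4.1% were called lower, and the share called higher is not given here. From 3 h to 24 h 6 of 8 condensin genes, 20 of 30 centromere and kinetochore genes, 22 of 32 spindle, motor and cytokinesis genes and 27 of 32 DNA replication genes were lower, against 3 of 17 of the anaphase-promoting complex and 2 of 13 of cohesin. Of 13 tubulins 3 were lower and 2 higher. Kifc1, a minus-end spindle motor, was at -1.07, adjusted p = 1.10e-04 and Trip13, a checkpoint ATPase, at -0.87, adjusted p = 9.59e-04. Over all the lists 5 genes were called higher, namely Ccng1, Cdkn1a, Ccnd3, Tubb6 and Tuba4a, and of these Ccnd3 was named after its values were seen. Cdkn1a, which encodes the cyclin-dependent kinase inhibitor p21, went from 77.3 ± 12.6 to 154 ± 19.9 CPM (SD, n = 4), 1.00 (SE 0.12, adjusted p = 3.98e-04). With 10 µM at 24 h it was 132 ± 15.1 CPM and did not pass (-0.22, adjusted p = 0.264).

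Among transcription regulators of the cell cycle 5 of 23 were called lower at 10 µM and 24 h, beside 3.44% of all tested genes, and none was called higher. Foxm1, an activator of mitotic genes, was at 73.7 ± 7.82 CPM in the 3 h controls, 48.6 ± 6.85 CPM in the 24 h controls, 38.6 ± 2.98 CPM with 1 µM and 27.7 ± 3.83 CPM with 10 µM at 24 h (SD, n = 4). It fell with 10 µM (-0.80, adjusted p = 0.00297) and with time (-0.60, adjusted p = 0.00563). Mybl2 (B-Myb), the other activator that joins the MuvB complex, fell with 10 µM (-0.94, adjusted p = 0.00725) and with time (-0.86, adjusted p = 0.00271). The S phase regulators E2f1 (-0.67, adjusted p = 0.00439) and E2f7 (-0.73, adjusted p = 0.00784) were lower at 10 µM, and E2f8 was at -0.51, adjusted p = 0.053. The constant subunits of MuvB, Lin9, Lin37, Lin52 and Lin54, were at -0.34, 0.12, 0.27 and 0.09 with 10 µM, with adjusted p-values of 0.225 to 0.789. E2f4 (-0.13) and the pocket proteins Rb1 (0.13), Rbl1 (-0.26) and Rbl2 (-0.02) did not pass either, nor did Wee1, the kinase that holds Cdk1 inactive (-0.28, adjusted p = 0.24).

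Markers of the cell types that a bud can hold moved at 24 h as well. Macrophage markers summed to 172.5 to 269.8 CPM in the 24 h controls, 177.6 to 262.8 CPM with 1 µM and 70.2 to 102.5 CPM with 10 µM, and 8 of 11 were called lower at 10 µM. Over all tested genes 3.44% were called lower in that comparison, and the share called higher is not given here. Markers counted below as lower or higher are those called. Endothelial markers ran from 400.2 to 452.6 CPM in the 24 h controls and from 316.6 to 351.8 CPM with 10 µM, with 5 of 10 lower and 1 higher, and epidermal markers from 1249 to 2348 CPM and from 877.3 to 1258 CPM, with 2 of 10 lower. Cartilage markers ran from 7704 to 11670 CPM in the 24 h controls and from 10650 to 14110 CPM with 10 µM (1 of 12 called, higher), and limb mesenchyme markers from 1562 to 1791 CPM and from 1638 to 1850 CPM (1 of 15 called, lower). Over time in the controls 10 of 12 cartilage markers, 8 of 12 skeletal muscle markers and 7 of 11 macrophage markers were called higher. The share of all tested genes called higher over time is not given here. In the same comparison 4 of 15 limb mesenchyme, 2 of 10 endothelial, 2 of 10 erythroid and 3 of 8 Schwann cell and glia markers were called lower, beside 4.1% of all tested genes. Of the Schwann cell and glia markers 1 of 8 was called higher, as were 2 of 10 epidermal markers. Of the erythroid and the Schwann cell and glia markers none of 10 and 7 was called at 10 µM and 24 h, and 1 of 11 skeletal muscle markers was lower. No macrophage, endothelial, epidermal, cartilage or mesenchyme marker was at 0 in any library. Their part in the fall of the mitosis genes was not tested.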

How the data were processed

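Poly-A RNA of cultured forelimb buds was sequenced in 24 libraries, 4 for each of 6 groups, which were taken from the sample titles. Per the file headers, the authors deposited raw read counts per gene, their own log2 fold changes and their own adjusted p-values in 5 tables. CASAVA 1.8, STAR 2.5, HTSeq 0.6.1, DESeq2 and the build mm10 are named in the submitters' processing notes. Whether counting used strand is not given in the sources used here, so overlapping genes on opposite strands cannot be separated. Counts of a library did not differ between tables, and 50 other per-sample columns were not used. Library totals were 14165947 to 20823058 counts. Libraries of a group differed by more than counting error (in the closest pair of each group, chi-square per degree of freedom was 4.91 to 20.2), so depth alone does not set the precision.

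The members and the lists were chosen with earlier results of these data known. Counts were tested with edgeR 4.0.16 (R 4.3.3): TMM scaling, filterByExpr with a minimum count of 10 and a minimum total of 15, and the robust quasi-likelihood test, adjusted over all tested genes by Benjamini-Hochberg. The 4 comparisons of a dose with its control and the controls over time were each fitted on their 8 libraries, and the other 6 contrasts on all 24. The script was tested on simulated data. Standard errors were the log2 fold change divided by the root of F. The genes named from the lists were up to 4 called genes a list and comparison with the smallest adjusted p, and a fixed set of regulators. Promoter windows were taken from RefSeq.

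Alternatives were DESeq2 1.42.0, its size factors, no filter, the replicate number as a block, a term for replicates 1 and 2 against 3 and 4, fits within these pairs, all 24 libraries, and each library left out. Removal of a length trend (lowess span 0.3) was added after seeing the data. Deviations of libraries with the same replicate number correlated at over 0.1 in all 4 pairs for each dose comparison (0.106 to 0.361). The same-numbered library gave the highest correlation in 2 of 4 pairs for 10 µM at 3 h. In the other dose comparisons it did so in 3 or 4 of 4 pairs. For the controls over time 3 of 4 pairs correlated at over 0.1. The number entered as a block in the alternatives only, and the main p-values come from fits without pairing. What the numbers stand for was not tested.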

Additional observations from a re-analysis of the deposited data

Results flagged for a closer look

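In 15 of 258 groups of 4 libraries 1 library lay far from the other 3, while chance alone gives about 1 in 20. Replicate 2 with 1 µM at 24 h was far below the others in Top2a (121.2 CPM), Tpx2 (42.42 CPM), Cdc20 (30.92 CPM) and Espl1 (16.25 CPM), and replicate 1 of that group was far above in Ttk (14.25 CPM). With 10 µM at 24 h replicate 2 was far above in Ccnb2 (20.63 CPM) and far below in Nuf2 (8.399 CPM) and Casc5 (7.835 CPM), and replicate 3 was far above in Cdca8 (25.07 CPM). Among the 24 h controls this held for replicate 2 in Cdc25c (11.19 CPM, low) and Espl1 (31.86 CPM, high), replicate 4 in Plk1 (43.29 CPM, high) and replicate 1 in Spc24 (15.42 CPM, low). Among the 3 h controls it held for replicate 1 in Pttg1 (27.9 CPM, low) and replicate 3 in Cenpe (72.93 CPM, high).

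The effect of 10 µM differed between 24 h and 3 h in 43 of 43 genes by a test of the difference itself (edgeR's quasi-likelihood test, adjusted p under 0.05). The difference on the log2 scale was -1.31 for Kif15, -1.26 for Casc5 and -1.13 for Ndc80 at one end, and -0.65 for Cdk1, -0.65 for Cdc20 and -0.65 for Ube2c at the other.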

How the results depend on the processing

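With 10 µM at 3 h the number of genes called went from 0 to 2 with no filter, with DESeq2, with the replicate block and with the term for replicates 1 and 2 against 3 and 4. With 1 µM at 24 h it went from 0 to 4 with DESeq2 and to 9 in the fit of all 24 libraries. With 10 µM at 24 h it was 43, but 0 within replicates 1 and 2 and 36 within replicates 3 and 4. Each of these fits had 2 libraries a group. With 1 library left out the count was 40 to 43. In the controls over time the number called was 43, with 1 within replicates 1 and 2 and 43 within replicates 3 and 4. Between the doses at 24 h it was 39, and 23 to 38 with 1 library left out. For the 1 µM effect at 24 h minus that at 3 h it went from 0 to 3 with DESeq2, to 1 with the replicate block, and was 0 to 1 with 1 library left out. The causes were not tested. Counts of calls over all genes are given here only for the fits that close this paragraph. The replicate block changed no other count of calls among the 43 by over 1.5 times. The counts for each dose over time were 43 with each library left out. Signs changed under an alternative in the 3 h dose comparisons alone, in 21 genes with 1 µM and 17 with 10 µM, none of them called. Over all genes, the 963 called with 10 µM at 24 h became 491 to 1242 with 1 library left out and 1645 with the replicate block.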
